A study of Mus musculus with 10 samples.

Results

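Astrocytes are the cells that the authors' annotation of mouse hippocampus names Astrocyte. There are 3720 of them among 68914 annotated cells, in clusters numbered 11 (3153 cells) and 26 (567 cells), and they are the seventh most numerous of 16 cell classes. The 10 libraries are from C57BL/6 males of wild-type genotype at 11 weeks of age, each injected into both hippocampi and sampled 3 days later. The vehicle group received the injection without protein (n = 4), the FL-NfL group full-length neurofilament light chain at 1 mg/ml (n = 3), and the CC-NfL group its coiled-coil part at 1 mg/ml (n = 3). Every group therefore carries the needle injury, and there was neither an uninjected group nor a group given an unrelated protein. What the vehicle consisted of is not given in the sources used here.

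Astrocytes are the star-shaped glia that take up glutamate at synapses, buffer potassium and cover blood vessels with their endfeet. After injury or inflammation they become reactive, and microglia and macrophages are known to drive part of that change. Their usual markers are Aqp4, the water channel of the endfeet, Slc1a3, the glutamate and aspartate transporter, and Gfap, an intermediate filament protein, as neurofilament light chain is in neurons. In the hippocampus the stem cells of the dentate gyrus share Gfap and Slc1a3 with astrocytes. The annotation also has a class named NPC, a usual abbreviation for neural progenitor cells, whose makeup was not checked here. Gene values were not analysed here, so the class name was not checked against these markers, and neither cluster is given a subtype name.

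The libraries held 3150 to 14141 annotated cells, of which 61 to 802 were astrocytes. Batches b1 (6 libraries) and b2 (4 libraries), as the labels name them, differ in the number of annotated cells, and 2836 astrocytes (76.2%) came from b2. Barcodes without annotation made up 17.3% to 71.3% of a library and were left out of the shares. Of the astrocytes' barcodes, 2 occurred in astrocytes of more than 1 library and 70 in an annotated cell of any class of another library.

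The size of the astrocyte class was the first measure compared, to ask whether either protein is followed by a change in how many astrocytes are recovered. No difference between the groups passed. Vehicle libraries 1 to 4 held 4.90%, 1.85%, 8.22% and 8.64% of their annotated cells as astrocytes. FL-NfL libraries 1 to 3 held 4.27%, 3.37% and 6.12%. CC-NfL libraries 1 to 3 held 5.25%, 1.99% and 4.11%. The vehicle range encloses all 6 NfL libraries, so the groups overlap completely. Counting error was small beside this spread: the 95% interval ran from 1.42% to 2.38% in vehicle library 2, which had the fewest astrocytes, and from 8.06% to 9.24% in vehicle library 4. Within groups, with both batches pooled, the squared deviations were 49.6 times what counting error alone gives, against a median of 25.7 over the 16 classes.

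**Figure D1:**
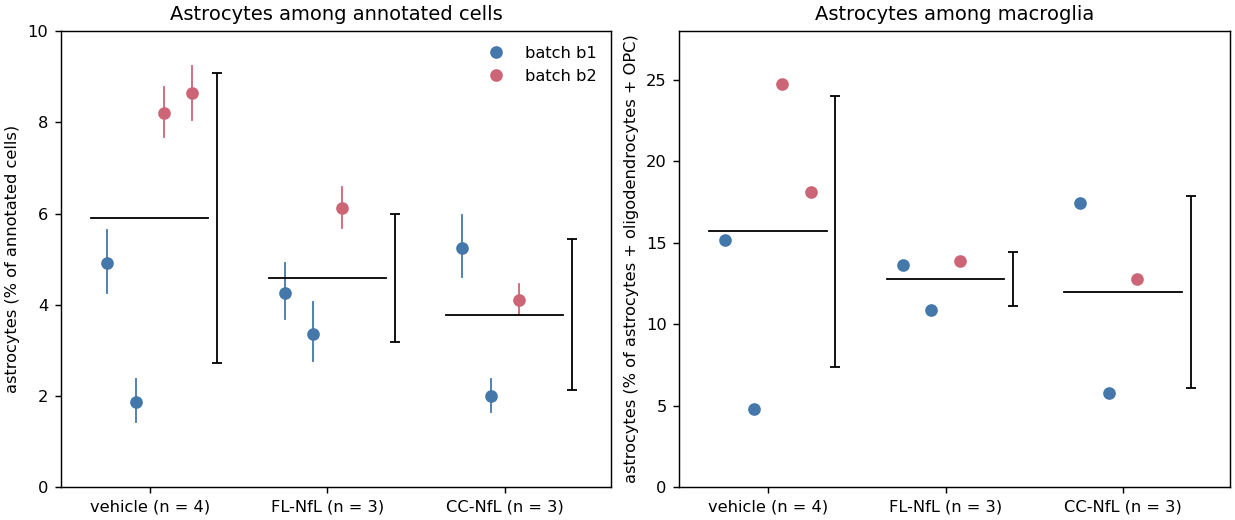
Astrocytes as a percentage of annotated cells (left, vertical lines are exact 95% counting intervals) and of astrocytes, oligodendrocytes and OPC together (right), by group. Each point is a library, coloured by batch, horizontal bars are group means and the brackets beside them are ± SD. The NfL libraries lie inside the vehicle range of 1.85% to 8.64% on the left.

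The mean was 5.90% ± 3.17 in vehicle (SD, n = 4), 4.58% ± 1.40 in FL-NfL (n = 3) and 3.78% ± 1.65 in CC-NfL libraries (n = 3). Against vehicle, the log2 odds ratio in limma was -0.04 (SE 0.52, 95% interval -1.23 to 1.14, adjusted p = 0.993) for FL-NfL and -0.40 (SE 0.52, 95% interval -1.58 to 0.79, adjusted p = 0.827) for CC-NfL. FL-NfL minus CC-NfL gave 0.36 (SE 0.55, adjusted p = 0.918), and either NfL minus vehicle gave -0.22 (SE 0.44, adjusted p = 0.884). The sizes of these estimates were not stable. The quasi-binomial model gave -0.84 for CC-NfL (adjusted p = 0.138) and -0.61 for either NfL (adjusted p = 0.204). Leaving out single libraries moved the CC-NfL value from -0.86 without CC-NfL library 1 to -0.065 without CC-NfL library 3, and that between the proteins from 0.066 without CC-NfL library 3 to 0.86 without CC-NfL library 1. It moved the value for either NfL from -0.67 without vehicle library 2 to -0.028 without vehicle library 1. In the same fits 12.5% of the 16 classes were called (adjusted p under 0.05) after FL-NfL and 12.5% for either NfL, and astrocytes were not among them. It was 0% after CC-NfL and 0% between the proteins, with 3 and 1 classes under 0.05 before adjustment and 0 called in either contrast by the quasi-binomial model. The intervals are wide enough to hold a change of the odds by a factor of more than 2 in both directions for FL-NfL. A share falls when other cells rise, so fewer astrocytes and more cells of other classes cannot be told apart, and the dissociation and the live sort can set the share as well.

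The mean astrocyte share differed more between the batches than between the groups, and of annotated cells the difference did not pass adjustment. They averaged 3.61% ± 1.45 in b1 (SD, n = 6) and 6.77% ± 2.09 in b2 (n = 4), and 3 of 4 b2 libraries lay above every b1 library. The exact permutation p was 0.0286 over all splits and 0.0370 within groups, 0.0667 and 0.111 after adjustment over 6 measures. In limma the batch term was 0.97 (SE 0.44, adjusted p = 0.452), with 6.25% of classes called for that term. With all barcodes as the denominator it was 1.74 and was called (adjusted p = 0.0385). Barcodes without annotation made up 51.2% ± 10.8 of a library in b1 (n = 6) and 18.8% ± 1.58 in b2 (n = 4), and their part in the batch difference was not tested. Within b1, the vehicle mean was 3.38%, the FL-NfL mean 3.82% and the CC-NfL mean 3.62%. Within b2, the vehicle mean was 8.43%, the single FL-NfL library had 6.12% and the single CC-NfL library 4.11%. The lower means of the NfL groups therefore came from b2, and in b1 they were not below vehicle.

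The immune classes take a large part of each library, so astrocytes were also counted against the rest of the tissue. Of the non-immune cells, astrocytes made up 8.95% ± 4.96 in vehicle (n = 4), 7.62% ± 1.53 in FL-NfL (n = 3) and 6.00% ± 2.36 in CC-NfL libraries (n = 3). Of the macroglia, meaning astrocytes, oligodendrocytes and OPC (oligodendrocyte precursors), they made up 15.7% ± 8.31, 12.8% ± 1.67 and 12.0% ± 5.89. The exact permutation p-values of these measures lay between 0.362 and 0.800, and all were 0.633 or higher after adjustment. There were 9.74 to 58.4 astrocytes per 100 OPC in vehicle, 18.8 to 43.3 in FL-NfL and 11.3 to 32.3 in CC-NfL libraries. Per 100 oligodendrocytes, the myelin-forming glia, there were 10.3 to 99.6, 25.7 to 34.6 and 13.4 to 76.7. These ranges overlap between all groups, as did those per 100 NPC, at 29.3 to 450.6, 31.5 to 132.5 and 25.6 to 78.9. Per 100 neurons there were 17.4 to 234.6 astrocytes in vehicle, 71.6 to 82.9 in FL-NfL and 26.4 to 59.3 in CC-NfL libraries. By that ratio the FL-NfL libraries lay above all CC-NfL libraries and inside the vehicle range, a difference that was not tested. For comparison, 18.8% of the 16 classes separated FL-NfL from CC-NfL completely as shares of annotated cells.

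Across the 10 libraries, astrocyte shares were compared with those of 5 other classes on the log2 odds scale, all of them parts of the same whole. The strongest relation was with ependymal cells, the ciliated lining of the ventricles (Pearson r = 0.62, permutation p = 0.0571, and Spearman rho = 0.67, permutation p = 0.0397, with 0.286 and 0.198 after adjustment over 5 relations). Without the 2 libraries farthest from the ependymal median r was 0.91, and within the 6 b1 libraries it was 0.28 (exact permutation p = 0.519). With NPC, r was 0.15 over all libraries (permutation p = 0.675, 0.940 after adjustment; Spearman rho = 0.16, permutation p = 0.657, 1 after adjustment). It was 0.05 without the 2 libraries farthest from the NPC median and 0.89 within b1 (exact permutation p = 0.0278, not adjusted). Batch b2, with 4 libraries, was too small for a value of its own. With OPC, oligodendrocytes and neurons, r was -0.45, -0.03 and -0.10 and rho -0.36, 0.01 and -0.09. Their permutation p-values ranged from 0.193 to 0.940 for r and from 0.313 to 1 for rho, with adjusted values of 0.483 or higher. Within b1, r was -0.54, -0.75 and -0.55 (exact permutation p = 0.260, 0.0833 and 0.260, not adjusted), and rho was -0.31, -0.83 and -0.37. Without the 2 libraries farthest from the median of each class r was -0.41, -0.28 and -0.20.

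The astrocytes divide into a large and a small cluster, and among the contrasts between groups the balance of these gave the lowest p-values in limma and in the permutation tests. Cluster 26 took a larger part of the astrocytes after CC-NfL in each of its libraries, but the difference did not pass adjustment over clusters. Cluster 26 made up 12.6%, 11.5%, 11.3% and 7.89% of the astrocytes in vehicle libraries 1 to 4. In FL-NfL libraries 1 to 3 it made up 29.4%, 9.43% and 14.9%. In CC-NfL libraries 1 to 3 it made up 29.5%, 20.0% and 22.0%. All 3 CC-NfL libraries lay above every vehicle library, whereas FL-NfL library 2 lay inside the vehicle range and the other two above it. Complete separation of the groups was found for 9.09% of the 22 tested clusters for FL-NfL against vehicle and 27.3% for CC-NfL against vehicle. It was 4.55% between the proteins and 9.09% for either NfL against vehicle. The 27.3% includes clusters 26 and 11, each the complement of the other, and also clusters of other classes. Separation after CC-NfL was thus not particular to astrocytes. The vehicle libraries differed little among themselves, with squared deviations 2.31 times what counting error gives. The intervals are wide where cells are few: in vehicle library 2, 7 of 61 astrocytes belonged to cluster 26 (95% interval 4.74% to 22.2%), and in FL-NfL library 2 the interval was 4.62% to 16.7%. In CC-NfL library 3, the deepest of that group, it was 18.7% to 25.6%.

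**Figure D2:**
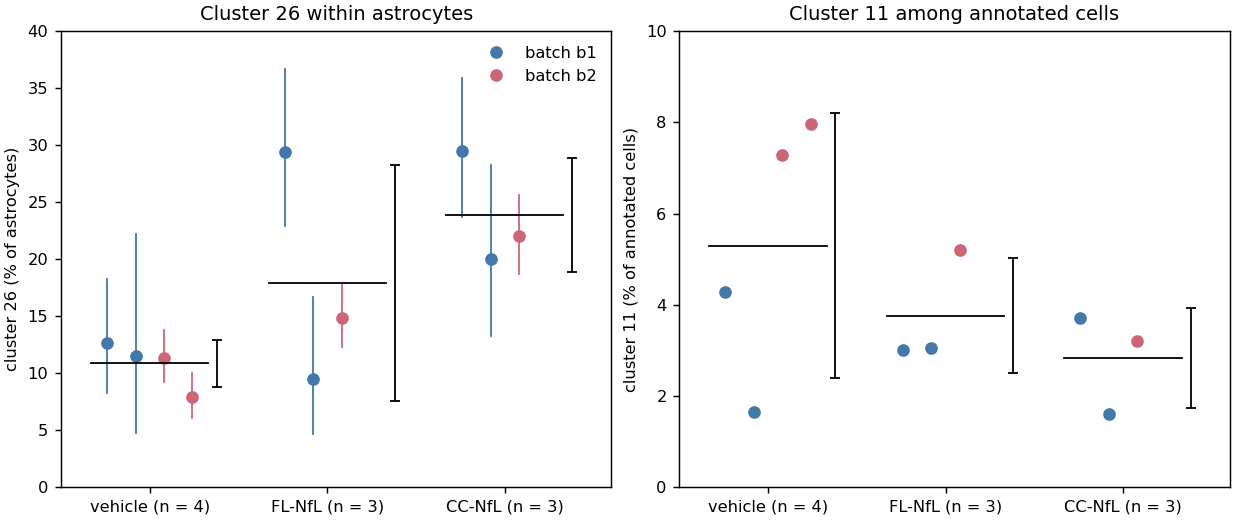
Cluster 26 as a percentage of astrocytes (left, vertical lines are exact 95% counting intervals) and cluster 11 as a percentage of annotated cells (right), by group. Each point is a library, coloured by batch, horizontal bars are group means and the brackets beside them are ± SD. On the left the CC-NfL libraries start at 20.0% and the vehicle libraries end at 12.6%, and on the right the groups overlap.

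The mean share of cluster 26 among astrocytes was 10.8% ± 2.04 in vehicle (n = 4), 17.9% ± 10.3 in FL-NfL (n = 3) and 23.8% ± 5.01 in CC-NfL libraries (n = 3), the last being 2.20 times the vehicle mean. In limma's test, CC-NfL minus vehicle was 1.29 on the log2 odds scale (SE 0.48, 95% interval 0.19 to 2.40), with an adjusted p = 0.0997, which did not pass. The share of the 22 clusters called in that fit was 0%, although 8 had an unadjusted p under 0.05. In the quasi-binomial model, which weights each library by its cells, cluster 26 was called after CC-NfL (log2 odds ratio 1.36, adjusted p = 0.0331), among 6 of 22 clusters. Cluster 11 is the complement of cluster 26 and counts as another of those 6. The exact permutation p for the percentages was 0.0286 over all splits, the smallest that 4 against 3 libraries allow, and 0.0556 within batch, also the smallest. After adjustment over 16 tests these were 0.419 and 0.444. A lone test at its smallest p could not pass that adjustment, so the adjusted values cannot decide here.

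The other contrasts of cluster 26 within astrocytes had smaller estimates. FL-NfL minus vehicle was 0.65 on that scale (SE 0.48, 95% interval -0.45 to 1.76, adjusted p = 0.516), with 0% of clusters called in limma, 2 at an unadjusted p under 0.05 and 0 in the quasi-binomial model. That value rests on FL-NfL library 1: without it the estimate was 0.17, and without FL-NfL library 2 it was 1.15. For either NfL minus vehicle it was 0.97 (SE 0.41, adjusted p = 0.127), again with 0% called, 8 at an unadjusted p under 0.05 and 3 in the quasi-binomial model. The proteins themselves differed by -0.64 (FL-NfL minus CC-NfL, SE 0.51, 95% interval -1.81 to 0.53, adjusted p = 0.840), with 0% called, 0 at an unadjusted p under 0.05 and 0 in the quasi-binomial model. Leaving out single libraries moved it from -1.16 without FL-NfL library 1 to -0.11 without FL-NfL library 2. A difference between FL-NfL and CC-NfL was thus not shown, and equality was not shown either.

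The mean for CC-NfL lay above that for vehicle in both batches. In b1 its mean share of astrocytes was 12.1% in vehicle, 19.4% in FL-NfL and 24.8% in CC-NfL libraries. In b2 the vehicle mean was 9.62%, with 14.9% in the FL-NfL library and 22.0% in the CC-NfL library. The batch term for this share was -0.33 (SE 0.41, adjusted p = 0.824), with 0% of clusters called, 4 at an unadjusted p under 0.05 and 0 in the quasi-binomial model. FL-NfL library 1 and CC-NfL library 1, which had the highest shares of cluster 26, were also rich in NPC, at 13.5% and 20.5% of annotated cells. Vehicle library 1 had 16.8% NPC and the other 7 libraries 1.82% to 5.88%, and cluster 26 made up 12.6% of the astrocytes of vehicle library 1. FL-NfL library 1 and CC-NfL library 1 also had the most barcodes without annotation, at 71.3% and 53.0%. Vehicle libraries 1 and 2 came close to the latter, at 48.7% and 50.3%. The part of the NPC and of these barcodes in the result was not tested. Without the 3 libraries numbered 1 the estimate for CC-NfL was 1.24 (adjusted p = 0.258).

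As shares of annotated cells, cluster 26 had a higher and cluster 11 a lower mean in CC-NfL than in vehicle libraries, and neither difference passed. Cluster 26 made up 0.612% ± 0.298 of annotated cells in vehicle (n = 4), 0.828% ± 0.475 in FL-NfL (n = 3) and 0.951% ± 0.577 in CC-NfL libraries (n = 3). Cluster 11 made up 5.29% ± 2.91, 3.75% ± 1.26 and 2.83% ± 1.10. CC-NfL minus vehicle was 0.71 in limma (log2 odds, SE 0.68, adjusted p = 0.676) for cluster 26 and -0.62 (SE 0.50, adjusted p = 0.637) for cluster 11. The quasi-binomial model gave 0.38 (adjusted p = 0.723) and -1.07 (adjusted p = 0.0584). Leaving out single libraries moved the value of cluster 26 from 0.14 without CC-NfL library 1 to 1.12 without CC-NfL library 2, and that of cluster 11 from -1.06 without vehicle library 2 to -0.29 without CC-NfL library 3. For FL-NfL minus vehicle it was 0.51 (SE 0.68, adjusted p = 0.833) and -0.16 (SE 0.50, adjusted p = 0.925). For either NfL minus vehicle it was 0.61 and -0.39 (adjusted p = 0.590 for both), and for FL-NfL minus CC-NfL -0.19 and 0.46 (adjusted p = 0.920 for both). Of the 31 clusters, 6.45% were called for FL-NfL minus vehicle and 3.23% for either NfL. It was 0% for CC-NfL minus vehicle and 0% between the proteins, with 3 and 1 clusters under 0.05 before adjustment and 0 called in either contrast by the quasi-binomial model. By batch, cluster 11 was at 2.88% ± 1.08 of cells in b1 and 5.91% ± 2.15 in b2 (exact permutation p = 0.0143, 0.0667 after adjustment over 6 measures). Cluster 26 was at 0.726% ± 0.549 and 0.857% ± 0.117 (exact permutation p = 0.657). Whether the clusters differ in their relation to the batch is addressed by the batch term for cluster 26 of astrocytes, which did not pass.

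**Figure D3:**
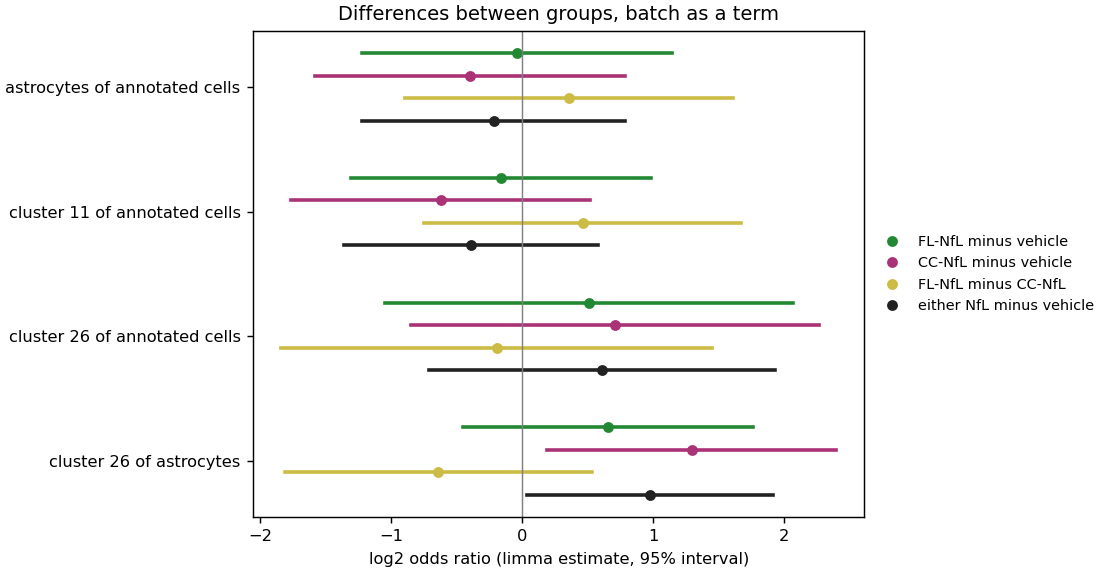
Log2 odds ratios (horizontal axis) with 95% intervals from limma for 4 shares (rows) and 4 contrasts (colours), with batch as a term over 10 libraries. The intervals for cluster 26 of astrocytes lie above 0 for CC-NfL minus vehicle (0.19 to 2.40) and for either NfL minus vehicle (0.03 to 1.91), before adjustment, and all others include 0.

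On the authors' t-SNE map, which places cells with similar expression near each other, the astrocytes formed a closed territory. Of the 30 nearest neighbours of an astrocyte, 99.9% were astrocytes, with 0.0439% NPC and 0.0269% ependymal cells, and no other class occurred. All neighbours of cluster 11 cells were astrocytes. The few foreign neighbours belonged to 31 of the 567 cells of cluster 26, and 1 cell of that cluster, from a vehicle library, lay among ependymal cells, far from the rest. For 99.3% of cluster 26 cells the nearest cell of another class was an NPC, at a median distance of 1.77 map units, against 34.3% of cluster 11 cells at 6.10. Distances on such a map have no unit and are stretched unevenly, so this is a description. The share of astrocytes among the neighbours was 99.8% to 100% in every library, and the exact permutation p-values of the 4 contrasts were 0.176 to 0.543. Shares this close to 100% leave little room for a difference between groups.

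The clusters lay apart on the map. Cluster numbers and positions both come from the authors' data on the same cells, so this is a description and no separate evidence. Cells of cluster 26 had 96.8% of their neighbours in cluster 26 and 2.76% in cluster 11, and cells of cluster 11 had 99.4% in their own cluster. Cluster 11 was a single broad field, whereas cluster 26 consisted of a left strand of 391 cells and a right strand of 176 cells, on either side of 0 on the first map axis, the right one mostly an arc above the field of cluster 11. This split was drawn after the map was seen and carries no test. Only 7 cells lay within 0.5 of the dividing line.

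**Figure D4:**
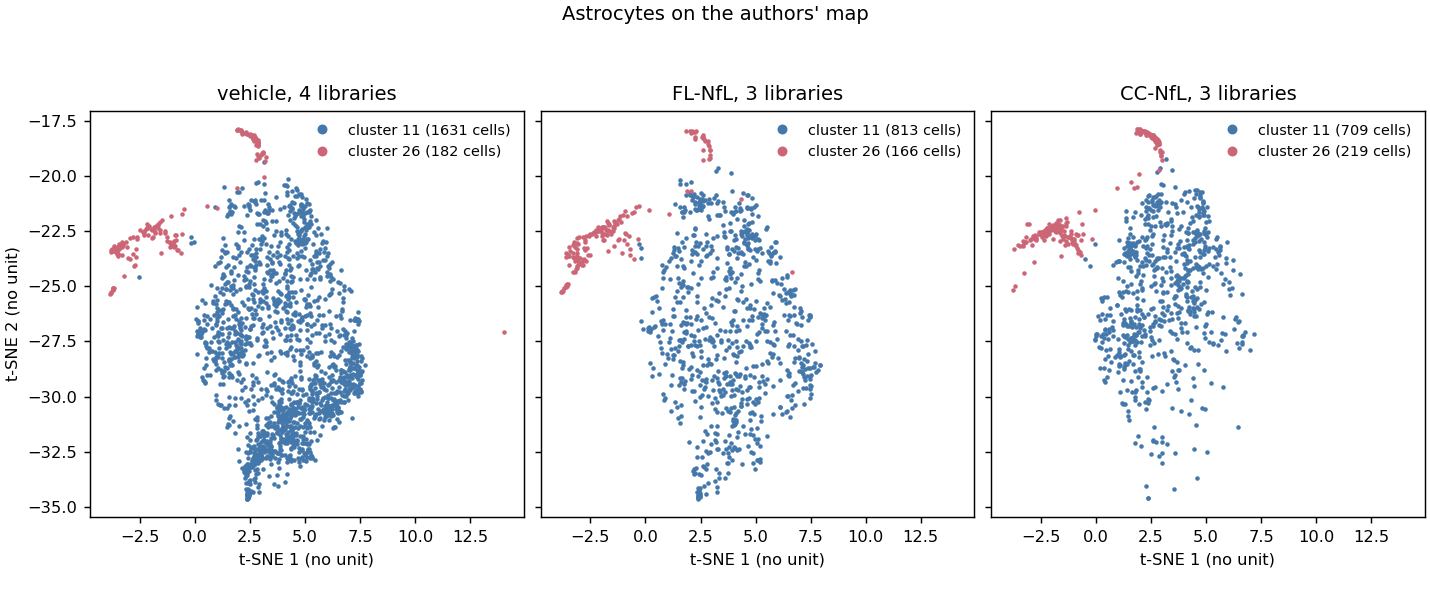
Astrocytes on the authors' t-SNE map (axes without unit), 1 panel per group, with all libraries of a group drawn together and cluster 11 and cluster 26 in different colours. Cluster 26 forms a left strand beside and a right strand above the field of cluster 11, and the lower end of that field is thinly filled in the CC-NfL panel.

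Split by strand, CC-NfL libraries 2 and 3 lay above all vehicle libraries for both strands, and CC-NfL library 1 for the left strand alone. The left strand made up 4.92% to 9.47% of astrocytes in vehicle, 7.55% to 24.4% in FL-NfL and 10.0% to 26% in CC-NfL libraries, so each CC-NfL library lay above all vehicle libraries. Its highest values were 26% in CC-NfL library 1 and 24.4% in FL-NfL library 1. The left strand holds 391 of the 567 cells of cluster 26, whose share already separated CC-NfL from vehicle. The separation of this strand is therefore no separate support. Of the 22 tested clusters, 27.3% separated CC-NfL from vehicle completely, with clusters 26 and 11 among them. The right strand made up 1.32% to 6.56% of astrocytes after vehicle and 1.89% to 5.00% after FL-NfL. After CC-NfL it made up 3.52%, 10.0% and 11.4% in libraries 1, 2 and 3. Libraries 2 and 3 thus stood above all others for the right strand, and library 1 above all others for the left.

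Within cluster 11 the cells of CC-NfL libraries lay higher on the second map axis than most others. The median position was -25.1, -25.4 and -25.1 in CC-NfL libraries 1 to 3. It was -25.7, -27.1, -27.4 and -30.2 in vehicle libraries 1 to 4, and -24.0, -28.6 and -27.6 in FL-NfL libraries 1 to 3. The lower end of the field was taken as the 25% of all cluster 11 cells with the lowest position. CC-NfL libraries 1 to 3 had 9.38%, 4.17% and 5.52% of their cluster 11 cells there, against 5.42%, 24.1%, 25.3% and 52.9% in vehicle libraries 1 to 4 and 3.94%, 32.3% and 23.1% in FL-NfL libraries 1 to 3. Vehicle library 1 and FL-NfL library 1 were as low as the CC-NfL libraries, so the groups overlap. Vehicle library 4 alone supplied more of that end than any other library. These positions were looked at after the map was seen and carry no test. Depth per cell, which can also move cells on such a map, was not analysed here, and its part in the positions was not tested.

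**Figure D5:**
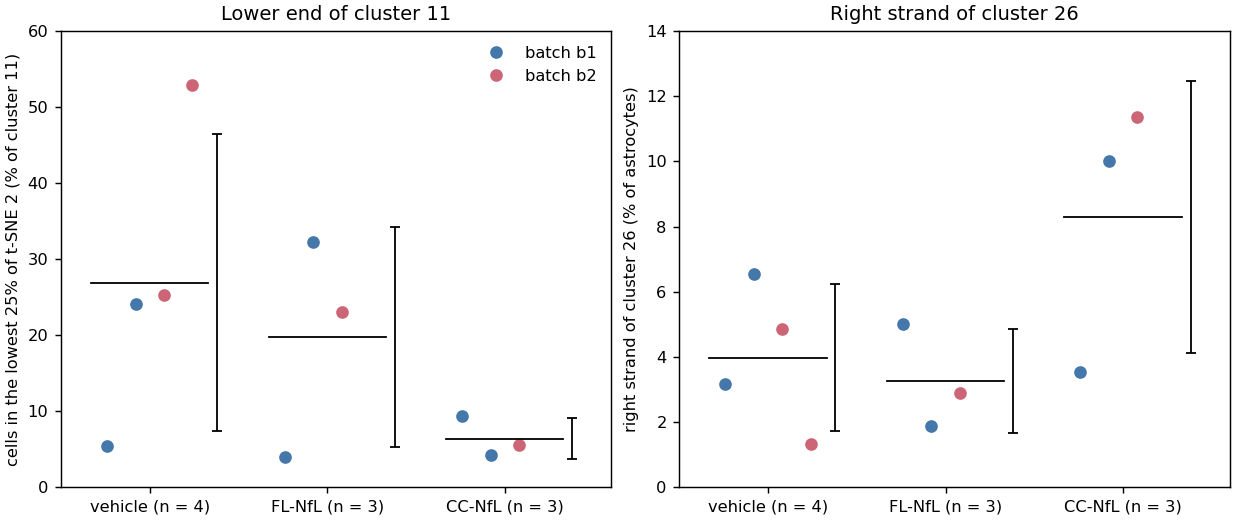
Share of cluster 11 cells in the lowest 25% of the second map axis (left) and right strand of cluster 26 as a share of astrocytes (right), by group. Each point is a library, coloured by batch, horizontal bars are group means and the brackets beside them are ± SD. On the left the CC-NfL libraries lie between 4.17% and 9.38%, with vehicle library 1 (5.42%) and FL-NfL library 1 (3.94%) beside them.

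Whether astrocytes of the same group lie together on the map was tested over all pairs of libraries. Pairs of the same group shared neighbours more than pairs of different groups by 0.03 on the log2 scale, which did not pass (one-sided exact permutation p = 0.152, 0.260 after adjustment over 12 classes). Of the 12 classes tested in this way, 50% passed. The test ranks a value among relabelings within batch and not against 0. The class named Choroid passed at -0.048 and OPC at 0.0043, so passing does not by itself mean a value above 0. Within cluster 11 alone the value was 0.01 (one-sided exact permutation p = 0.150). The smallest p this test allows is 0.00185. Among cluster 11 cells, the 3 pairs of CC-NfL libraries shared neighbours more than random mixing gives, by 0.58 (range 0.49 to 0.69), whereas the 6 pairs of vehicle libraries did so by -0.20 (range -1.11 to 0.36) and the 3 pairs of FL-NfL libraries by -0.06 (range -0.15 to 0.09). Pairs of different groups reached higher single values than the CC-NfL pairs, up to 0.82 for vehicle with CC-NfL (mean -0.09) and 0.81 for FL-NfL with CC-NfL (mean 0.22), so close positions were not particular to CC-NfL pairs. These pair values were picked out after they were seen and carry no test. A cluster was tested in this way where every library held 10 or more of its cells, and cluster 26 was not, since vehicle library 2 held 7.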

How the data were processed

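Both hippocampi of a mouse were broken up by enzymes with actinomycin D, a blocker of transcription, added. Cells that took up a live dye and excluded propidium iodide were sorted and made into droplet 3′ libraries, per the labels' protocols. Reads were processed with Cell Ranger 6.0.1 and GRCm38 is named as the build, per the submitters' processing notes. How barcodes were filtered, clustered, named and placed on the map, and how doublets were treated, is not given in the sources used here. Doublets were not called here, since gene values were not analysed. Per cell barcode, the deposited table lists the sample, condition, batch, cluster number, cell class and a pair of t-SNE positions. The authors' t-SNE positions are scores without a unit, and gene values and counts of molecules per cell were not analysed here. Condition and batch matched the labels in all 68914 annotated cells.

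Cells were counted per library, and the library was the replicate. A share was turned into log2 odds, log2((cells + 0.5) / (other cells + 0.5)), and modelled by group and batch over the 10 libraries in limma 3.58.1 under R 4.3.3. P-values of its moderated test were adjusted (Benjamini-Hochberg) over the items that averaged 10 or more cells a library, which were 16 classes, 31 clusters and 22 clusters as a share of their own class. An adjusted p under 0.05 was called. Percentages were also compared by two-sided exact permutation of the libraries, over all splits and within batch, adjusted over 16 tests. The design allows no p under 0.0286 for 4 against 3 libraries and none under 0.100 for 3 against 3. In none of the 4 contrasts could a lone test at its smallest p pass the adjustment over 16 tests. Map neighbours were the 30 nearest cells. In the test of mixing, the log2 of observed over expected neighbours from another library was compared between same-group and different-group pairs (difference of means), with one-sided exact permutation within batch. The fits, the permutations and the mixing test were tested on simulated data or small examples.

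The classes and clusters described, the named comparison classes (OPC, oligodendrocytes, NPC, neurons and ependymal cells, with the immune classes), the tests and the alternatives were chosen with earlier results of these data known. Intervals on the share of a library are exact (Clopper-Pearson, 95%) and cover counting error only. Alternatives were another model, other scales and denominators, 1 cell added, no minimum of cells, no batch term, a replicate block, batch b1 alone, no libraries numbered 1, each library left out in turn, and other numbers of map neighbours. A value was counted as unchanged if it kept its direction and its side of the threshold. Map-neighbour percentages have neither and were counted as unchanged too. In the leave-one-out permutations a lone test at its smallest p could not pass adjustment, so only the direction was informative there.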

Additional observations from a re-analysis of the deposited data

How the results depend on the processing

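Of 536 alternative values, 511 were counted as unchanged, 23 changed sign and 2 passed the threshold. The 2 were cluster 26 of astrocytes after CC-NfL in the quasi-binomial model (log2 odds ratio 1.36, adjusted p = 0.0331) and the batch term of the astrocyte share with all barcodes as denominator (1.74, adjusted p = 0.0385). The cause of either was not tested. Of the changes of sign, 10 were in the astrocyte share after FL-NfL, whose estimate of -0.04 is close to 0. That value became 0.33 in batch b1 only, 0.061 without the libraries numbered 1, 0.10 without immune classes and 0.069 with the replicate block, and ran from -0.49 to 0.15 when single libraries were left out. In batch b1 only, the astrocyte share also turned to 0.10 after CC-NfL and 0.22 for either NfL, and cluster 11 to 0.19 after FL-NfL and 0.028 for either NfL. Without the libraries numbered 1, cluster 11 after FL-NfL was 0.024. With single libraries left out, cluster 11 after FL-NfL ran from -0.60 to 0.029. Cluster 26 of annotated cells then ran from -0.00066 to 0.97 after FL-NfL and from -0.75 to 0.42 for FL-NfL minus CC-NfL. The difference in astrocyte percentage ran from -0.0967 to 1.53 points for FL-NfL minus CC-NfL, that of non-immune cells from -3.30 to 0.126 for FL-NfL minus vehicle, and that of macroglia from -6.54 to 0.114 for FL-NfL minus vehicle and from -2.33 to 3.53 for FL-NfL minus CC-NfL. The cause of these turns was not tested.

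Cluster 26 of astrocytes after CC-NfL lay between 1.13 and 1.495 over its alternatives on the log2 odds scale, the range that leaving out single libraries gave. Adjusted p ran from 0.0331 to 0.394. For either NfL it lay between 0.75 and 1.20. Calls over the 22 clusters within classes ran from 0 to 6 after CC-NfL and from 0 to 3 for either NfL. For either NfL the main fit called 0. The arcsine scale, the quasi-binomial model and the replicate block each called 3. Calls over 16 classes ran from 0 to 2 after CC-NfL (2 without CC-NfL library 1), after FL-NfL and for either NfL. Over 31 clusters they ran from 0 to 2 after CC-NfL and after FL-NfL and from 0 to 4 for either NfL. For the batch term they ran from 0 to 2 of 16 classes and from 0 to 2 of 31 clusters. Same-numbered libraries of different groups had r over 0.1 in 7 of 9 pairs (range over all 9 from -0.13 to 0.54). Of 9 libraries, 6 correlated best with their own number. Pairs with different numbers ran from -0.69 to 0.67. Same-numbered libraries share a batch, not removed here. Within b1, their r was -0.13 to 0.54, against -0.41 to 0.30 for different numbers. The labels do not say what the numbers mark and 2 of 9 pairs did not reach 0.1, so the numbers were not taken as pairs. With the replicate block, cluster 26 of astrocytes was 1.18 after CC-NfL (adjusted p = 0.0610) and no call on astrocytes changed. Squared deviations within groups were 49.6 times counting error for the astrocyte share and 5.62 times for cluster 26 of astrocytes, so libraries of a group differed by more than counting error. These values pool both batches, whose difference the fits take out as a term, so they are not the spread left in those contrasts. Leave-one-out of the percentages and the fit without the complement cluster 11 (adjusted p = 0.115) were added after seeing the data.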
